A study of Angelica pubescens with 12 samples.

Results

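Flowering and bolting regulators of Angelica pubescens were taken as the unigenes whose Swiss-Prot description names a flowering protein, a MADS-box, agamous, CONSTANS, vernalization or FRIGIDA protein, or a squamosa promoter-binding protein, and which had at least 30 counts summed over the 12 libraries. The clock proteins EARLY FLOWERING 3 and EARLY FLOWERING 4 were left out. Of the 67432 unigenes, 129 matched this text and 128 passed the count minimum. The match left out had 26.8 counts, and the lowest 2 members had 37.4 and 39 counts. The roots were labelled 2 years old and came from 4 producing areas, Chongqing, Gansu, Hubei and Shanxi, each with 3 RNA-seq libraries. Area was the only difference between the groups that the labels state, no treatment is named, and the series title gives differences between regions as its subject. A unigene is an assembled transcript (no genome was used), identified only by the protein it matches best, so a role given below is that of the matched protein in another plant. Identifiers are shortened to their DN number.

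In Arabidopsis, flowering is held back by MADS-box repressors such as FLOWERING LOCUS C, which the FRIGIDA complex activates and which a long cold period silences. Proteins of the autonomous pathway also lower FLOWERING LOCUS C, while day length acts through CONSTANS, and plant age through the SQUAMOSA PROMOTER-BINDING-LIKE (SPL) proteins. These inputs meet in integrators such as SOC1, which turn on the genes of floral identity. In medicinal umbellifers harvested for their roots, bolting makes the root woody and is a known problem of cultivation.

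The libraries held 19920182 to 23319714 counts, and the libraries within an area varied beyond counting error (chi-square of 4.47 to 8.85 per degree of freedom). Whether the 3 libraries of an area came from separate plants is not stated in the labels. The p-values therefore reflect variation among the libraries alone, and that variation could be technical. The 13 unigenes with root marker descriptions summed to 21 to 26.3 CPM (counts scaled to library size and normalised, area means) and the 30 with leaf and green shoot descriptions to 544, 305, 561 and 497 CPM in Chongqing, Gansu, Hubei and Shanxi, so transcripts named for photosynthesis were present in all 4 areas. In the test across areas, 10 of 11 tested root markers and 26 of 27 tested green shoot markers were called (adjusted p under 0.05), where 70.4% of all tested unigenes were. Among shoot meristem and flower markers, 2 unigenes matched the floral protein DEFICIENS, both called, with sums of 23.1 to 48 CPM, and none of those analysed matched SHOOT MERISTEMLESS, WUSCHEL or LEAFY. In bulk roots, fewer cells of a type and less RNA per cell cannot be told apart.

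By role the members comprised 51 MADS-box unigenes, 28 SPL, 16 CONSTANS-like, 14 of the FRIGIDA group (FRIGIDA, FRIGIDA-like proteins and the zinc finger protein FRIGIDA-ESSENTIAL 1), 13 of the autonomous pathway and 6 other flowering regulators. They matched 69 different proteins, 96 of the 128 best in Arabidopsis, and their NR descriptions came from carrot in 113 cases. No member carried a description of FLOWERING LOCUS T, the mobile flowering signal, or of TERMINAL FLOWER. The member text did not search for other names of this family, such as HEADING DATE or CEN-like. Outside the members, CEN-like protein 2 (DN4874) had 2.06 ± 0.137 CPM in Chongqing, 0.375 ± 0.0406 in Gansu and 0 counts in Hubei and Shanxi (edgeR adjusted p across areas 1.5e-05). CEN-like proteins 1 and 4 and a MOTHER of FT and TFL1 homolog had too few counts for the test. Together the members took 3238 ± 146 CPM (mean ± SD, n = 3) in Shanxi, 2849 ± 107 in Hubei, 2725 ± 58.3 in Chongqing and 2637 ± 124 in Gansu.

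The level of nearly every flowering regulator depended on the area. Of the 121 members with enough counts for the test, 113 differed between areas at an edgeR adjusted p under 0.05, where 70.4% of all tested unigenes did. Members were more abundant than the average unigene, with a median of 8.16 against 2.12 CPM. Among unigenes with a mean of at least 1 CPM, 98 of 104 members (94.2%) and 81.9% of all were called. The autonomous pathway, here only the matches to FCA, FPA, FY, FLD and FLK, had the smallest median span. Of its 12 tested members, 10 stayed below a 2-fold span between the highest and lowest area. MSI4, not counted in this role, was placed in a list of Polycomb and chromatin genes outside the members, and its unigenes varied in span. DN21298_c0_g1 had 12.6 CPM in Chongqing and 0.349 in Hubei, and DN15636 had 36.4 in Chongqing and 46.5 in Shanxi (area means). MADS-box unigenes had the largest median span, and of the 47 tested 12 had 3 counts or fewer in some area. For the other MADS-box members the median span was 1.98 on the log2 scale, against 0.44 for the autonomous pathway, 0.79 for the FRIGIDA group, 1.20 for SPL and 1.48 for CONSTANS-like members. The roles also differed in level. The median was 2.72 CPM for MADS-box members, 7.34 for SPL, 17.8 for CONSTANS-like, 19.2 for the autonomous pathway and 22.7 for the FRIGIDA group. The part of level in the spans was not tested, and spans over all tested unigenes are not given.

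**Figure D1:**
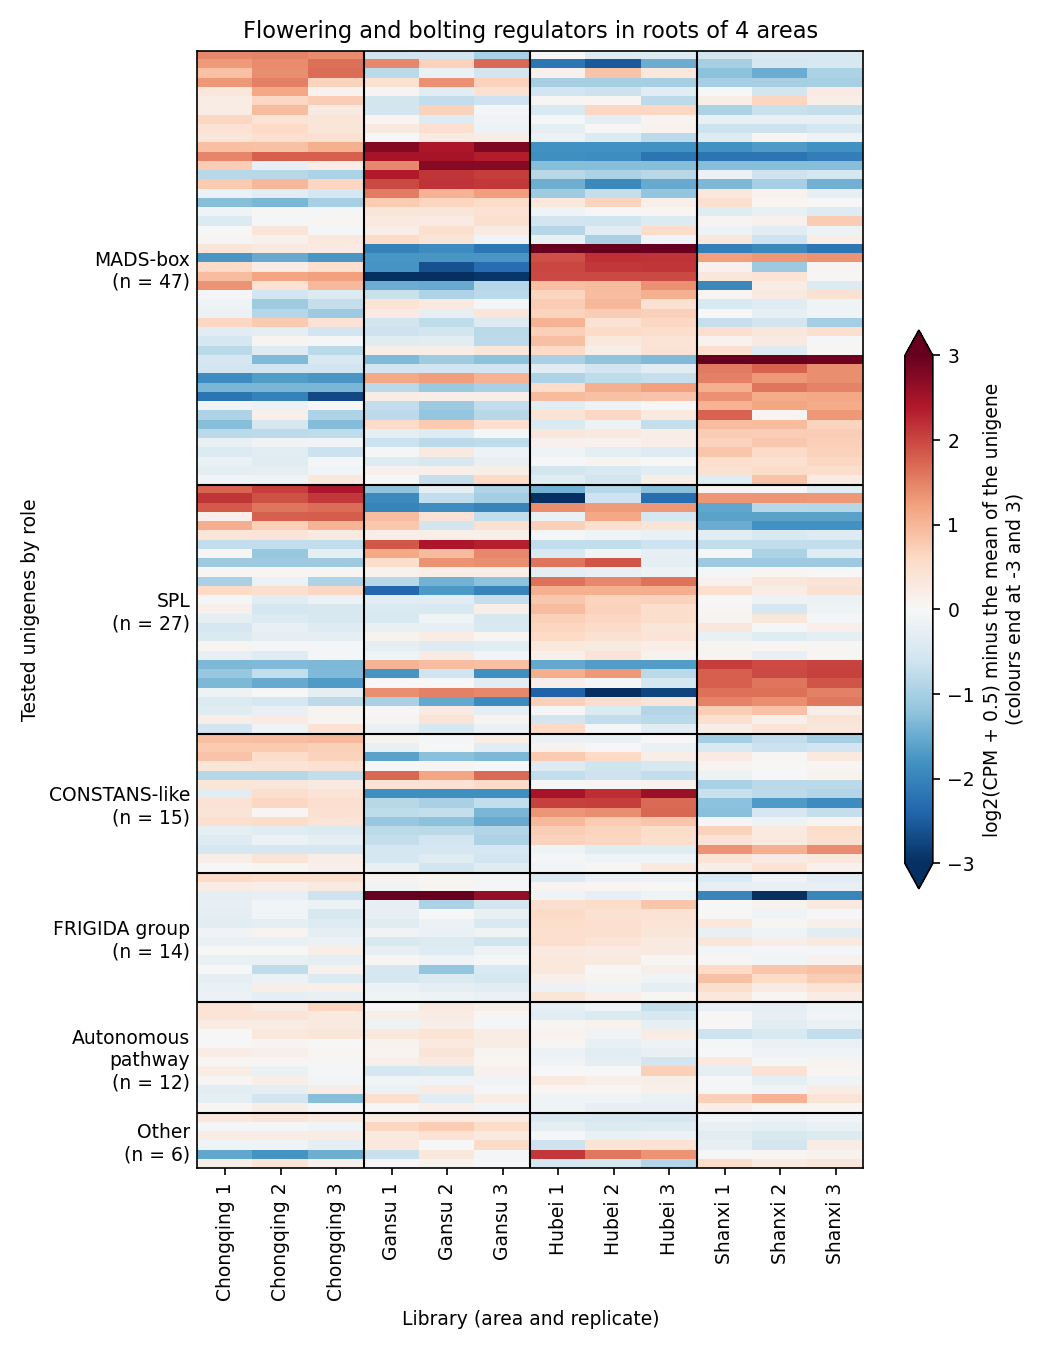
Rows are the 121 tested members by role and columns the 12 libraries; colour is log2(CPM + 0.5) minus the mean of the unigene, ending at -3 and 3. Replicates of an area share colours, MADS-box, SPL and CONSTANS-like rows carry the strongest ones, and the 12 autonomous pathway rows are mostly pale.

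Between pairs of areas, the members called were 65 for Chongqing and Gansu (38.5% of all tested unigenes called), 80 for Chongqing and Hubei (49.6%), 79 for Chongqing and Shanxi (47.8%), 84 for Gansu and Hubei (50.5%), 79 for Gansu and Shanxi (44.1%) and 77 for Shanxi and Hubei (44.6%). These pairs share libraries and are not independent of each other. Members were more abundant than the average unigene, and the shares for the pairs were not computed among unigenes of at least 1 CPM. Against Hubei, calls of lower levels outnumbered those of higher levels in each of the other areas, with 34 higher and 46 lower in Chongqing, 35 and 49 in Gansu and 35 and 42 in Shanxi. The shares of all tested unigenes were 23.6% higher and 25.9% lower in Chongqing, 24.0% and 26.5% in Gansu and 21.0% and 23.5% in Shanxi. Gansu had 33 members higher and 46 lower than Shanxi (21.2% and 22.9% of all), while Chongqing had 35 higher and 30 lower than Gansu (19.4% and 19.1%) and 40 higher and 39 lower than Shanxi (23.0% and 24.8%). The median log2 difference of the members from Hubei was -0.15 in Chongqing, -0.25 in Gansu and -0.14 in Shanxi, where that of all tested unigenes was 0.00 to 0.01. Of the 27 tested green shoot markers, 13 were higher and 9 lower in Chongqing than in Hubei, 3 and 18 in Gansu and 3 and 13 in Shanxi, and their part in the members' differences was not tested.

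**Figure D2:**
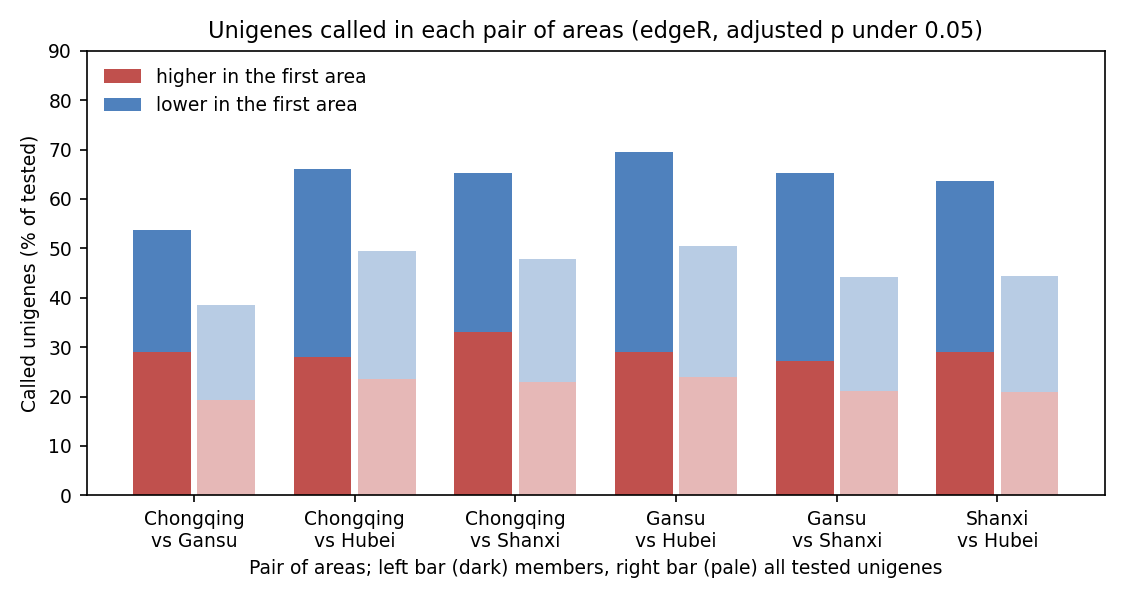
Bars give the percentage of tested unigenes called in each pair of areas, dark for the 121 members and pale for all 60756, split into higher and lower in the first area named. Members were called in 53.7% to 69.4% of cases and all unigenes in 38.5% to 50.5%.

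Counted by area, all 3 Hubei libraries lay above the other 9 for 28 of the 121 tested members, where 14.6% of all tested unigenes did so. All 3 Gansu libraries lay below the other 9 for 21 members, against 7.39% of all. The share standing above the rest was 17 members for Chongqing (10.6% of all), 16 for Gansu (8.73%) and 18 for Shanxi (10.6%). The share standing below was 9 for Chongqing (8.64%), 16 for Hubei (8.4%) and 15 for Shanxi (7.21%). These shares of all were not matched to the higher level of the members.

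Among the floral repressors, the abundant FLOWERING LOCUS C match DN15679 (TRINITY_DN15679_c0_g1_i4_2) was lowest in Gansu and highest in Shanxi. NR names it AGL27, an Arabidopsis relative of FLOWERING LOCUS C. It stood at 40, 43.5 and 43.9 CPM in the Chongqing libraries, 29.6, 26.5 and 27.5 in Gansu, 51.1, 50.3 and 54 in Hubei and 76, 82.6 and 77 in Shanxi. No areas overlapped, and all 6 pairs were called. Shanxi exceeded Gansu by 1.49 ± 0.07 (log2, SE; edgeR adjusted p = 1.9e-09).

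A second unigene named for a repressor was almost absent from Gansu alone. DN10208 matches grapevine MADS2 in Swiss-Prot and a FLOWERING LOCUS C-like protein in NR. Its levels were 10.1, 10.6 and 8.1 CPM in Shanxi, 32.3, 32.6 and 32.7 in Hubei, 15.5, 18.6 and 19.3 in Chongqing and 0.146, 0.253 and 0.616 in Gansu. Gansu lay far below every other library, with 23 counts over its 3 libraries against 2192 in Hubei. The log2 difference of Hubei over Gansu was 6.50 ± 0.26 (edgeR adjusted p = 2.8e-10), and 7.31 without Gansu replicate 3. Summed with 2 other unigenes that match MADS2, the difference was 0.94, but NR calls DN21401 among them SEPALLATA 1-like. NR gives DN10208 the same carrot protein as DN21312, DN18489 and DN19955, described below, so these may not be separate genes. DN19955 was higher in Gansu than in Chongqing and Hubei. The near absence from Gansu is therefore that of a unigene and not of the carrot match, over which no sum was made.

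DN21312, which matches AGL27 in Swiss-Prot and a FLOWERING LOCUS C-like protein in NR, followed a like order at lower levels. It reached 12.5 ± 0.657 CPM in Hubei, 3.66 ± 0.539 in Chongqing, 2.16 ± 1.07 in Shanxi and 0.171 ± 0.199 in Gansu (n = 3 each). Hubei over Gansu was 6.15 ± 0.56 on the log2 scale (edgeR adjusted p = 9.9e-07), and 7.42 without Gansu replicate 1. Of the other FLOWERING LOCUS C matches, DN20907 had 6.26, 0.946, 6.86 and 2.03 CPM in Chongqing, Gansu, Hubei and Shanxi, and DN18489 had 3.04, 0.485, 1.42 and 0.103. DN18489 was highest in Chongqing, by 4.82 ± 0.67 over Shanxi (log2; edgeR adjusted p = 5.2e-05) and by 5.95 without Shanxi replicate 3, yet the 3 unigenes of that match summed were lower in Chongqing than in Shanxi (-0.65).

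One unigene of this kind was higher in Gansu than in Chongqing and Hubei. DN19955, a match to tomato EJ2 that NR calls FLOWERING LOCUS C-like, had 12.6 ± 1.38 CPM in Gansu and 14.6 ± 1.58 in Shanxi against 3.76 ± 1.42 in Chongqing and 5.81 ± 1.22 in Hubei. Its Shanxi over Chongqing difference was 1.96 ± 0.23 (log2; edgeR adjusted p = 1.2e-05). DN11731, a rice MADS6 match also called FLOWERING LOCUS C-like by NR, was again lowest in Gansu, at 11.8 ± 1.08 CPM, and highest in Shanxi, at 22.3 ± 1.23. Counted as 7 unigenes named FLOWERING LOCUS C or AGL27 by either source, a set chosen after the names were seen, the sums were 54.2 ± 0.913 CPM in Gansu, 90.2 ± 4.37 in Chongqing, 129 ± 4.44 in Shanxi and 126 ± 2.89 in Hubei. Of the 7, 6 were lower and 1 higher in Gansu than in Hubei.

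JOINTLESS (DN21180), which in tomato forms the abscission joint of the flower stalk and belongs to the same clade as the Arabidopsis repressor SVP, split the areas into pairs. It had 193, 176 and 170.0 CPM in Hubei, 168, 149 and 166 in Shanxi, 75.8, 80.4 and 66.4 in Gansu and 94.7, 96 and 78.9 in Chongqing. Hubei and Shanxi lay above every Chongqing and Gansu library. The Hubei over Gansu difference was 1.28 ± 0.09 (log2; edgeR adjusted p = 1.2e-07), while Shanxi minus Hubei was not called (-0.16 ± 0.09, adjusted p = 0.2).

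AGL18 (DN17290), a flowering repressor in Arabidopsis, had 17.1, 14.4 and 14.9 CPM in Shanxi, 12.8, 12 and 11.9 in Hubei, 0.986, 1.18 and 0.551 in Chongqing and 7.45, 7.25 and 7.23 in Gansu. Each area was separate from the others. Shanxi over Chongqing was 4.09 ± 0.20 (log2; edgeR adjusted p = 2e-09). Its Arabidopsis relative AGL15 (DN14113), which acts in embryos and delays flowering, had 6.67 ± 0.734 CPM in Hubei, 3.58 ± 0.17 in Shanxi, 2 counts in Chongqing and 0 counts in Gansu. With 3 counts over the area as the floor, Hubei was at least 144-fold higher than Gansu.

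SOC1, the integrator that promotes flowering in Arabidopsis, had 3 matches that differed from each other in their pattern. DN21346, which NR calls AGL19, an Arabidopsis relative tied to vernalization, had 40.5, 31.5 and 40.6 CPM in Gansu, 63.8, 60.5 and 68.5 in Chongqing, 140.4, 155 and 147 in Shanxi and 54.8, 60.8 and 67.5 in Hubei. Shanxi stood clear of all other libraries, and Chongqing and Hubei overlapped (edgeR adjusted p = 0.59). The Shanxi over Gansu difference was 1.98 ± 0.10 on the log2 scale (edgeR adjusted p = 6e-09).

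DN21486 was the member with the smallest p in the test across areas (edgeR adjusted p = 1.6e-11). Its levels were 14.9, 16.9 and 17.5 CPM in Hubei, 82.9, 71.5 and 77 in Shanxi, 65.4, 69.6 and 60.1 in Gansu and 7.37, 8.71 and 8.3 in Chongqing. Gansu and Shanxi were both high and Chongqing the lowest, with Shanxi over Chongqing at 3.24 ± 0.10 (log2). DN18956, which NR also calls SOC1-like, was high only in Chongqing, where it had 8.1 ± 0.159 CPM against 1.46 to 2.13 elsewhere. The 3 unigenes summed to 227 ± 1.95 CPM in Shanxi, 79.6 ± 7.32 in Hubei, 80.5 ± 3.79 in Chongqing and 104 ± 3.1 in Gansu, so Shanxi was 2.85 times the lowest area.

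**Figure D3:**
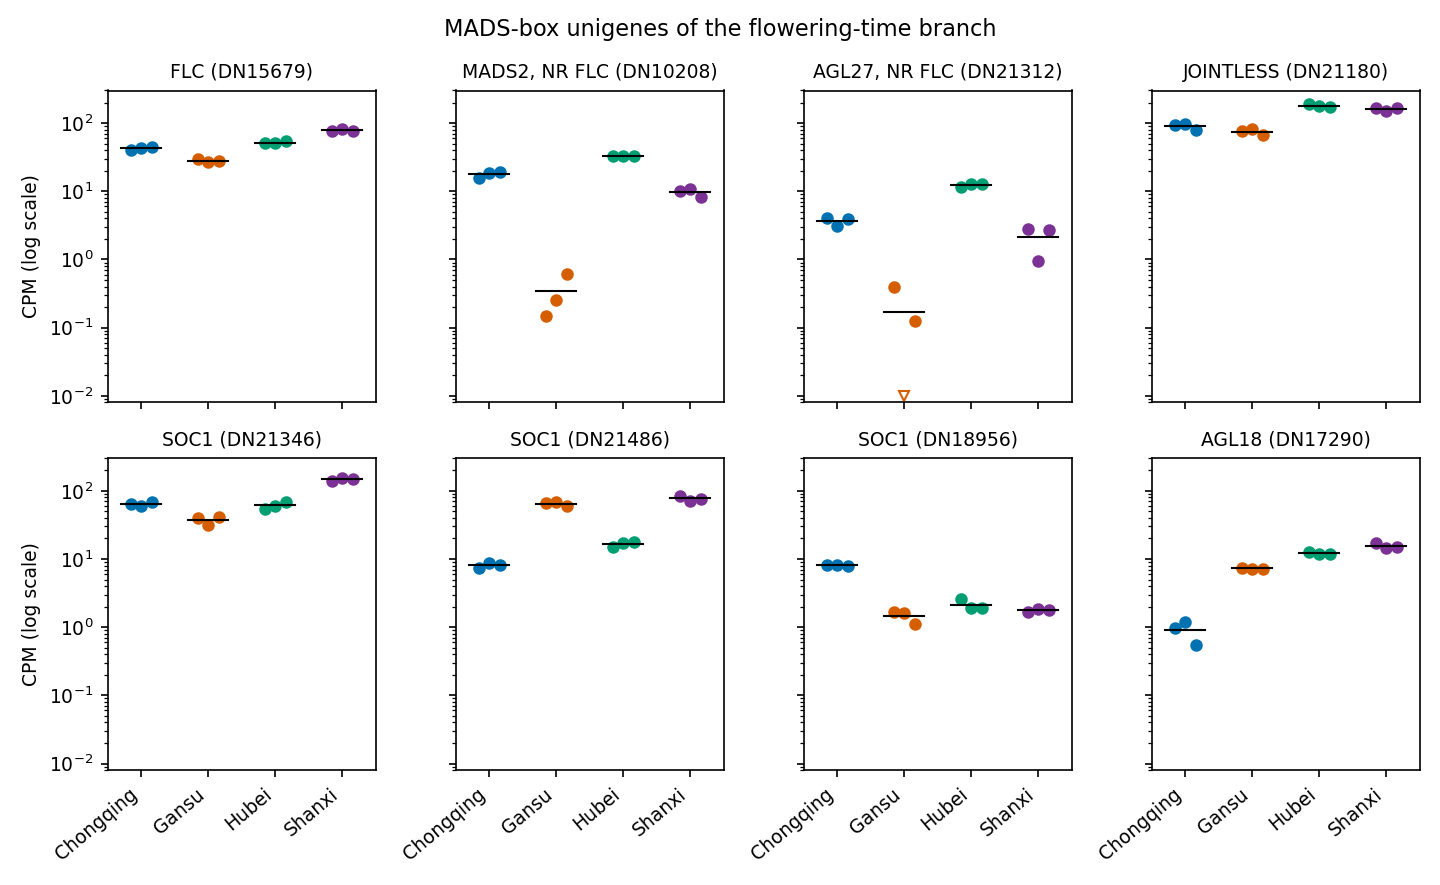
Each panel is 1 MADS-box unigene; points are libraries, the black line is the area mean, the y axis is CPM on a log scale, and open triangles at the bottom mark libraries at 0. Gansu is low in the panels of DN15679, DN10208 and DN21312, while Shanxi is high for the SOC1 matches DN21346 and DN21486.

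The AP1 and AGAMOUS matches described here had few counts in several areas. The grapevine AP1 match DN9353, whose Arabidopsis relative makes a shoot meristem floral, had 10.6, 12.8 and 9.03 CPM in Shanxi and 0 to 0.424 CPM in every other library. Shanxi exceeded Gansu, which had 3 counts, by a ratio of 233 (95% interval 79.6 to 1134, counting error only). NR names it a truncated CAULIFLOWER protein, another floral regulator. The fitted log2 difference was 7.70, and 8.61 without Gansu replicate 2. A further AP1 match, DN9689, was instead highest in Gansu, with 2.77 ± 0.596 CPM against 0.179 ± 0.118 in Hubei, a log2 difference of 3.91 ± 0.49 (edgeR adjusted p = 2e-05) and of 4.56 without Hubei replicate 2. AGAMOUS (DN12904), which specifies stamens and carpels, had 1.7, 2.03 and 1.45 CPM in Shanxi, 4 counts in Hubei and 0 in Chongqing and Gansu. Shanxi was at least 40.4-fold higher than Chongqing.

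Some matches to ovule and seed MADS-box proteins were near 0 in an area, and others were not. FBP24 (DN19879), a petunia ovule protein, had 27.8, 30.9 and 32.1 CPM in Hubei, 2.26 ± 0.0987 in Chongqing and 3 counts each in Gansu and Shanxi. The ratio of Hubei to Shanxi was 695 (95% interval 237 to 3371, counting error only), and the fitted log2 difference was 9.27, or 10.09 without Shanxi replicate 2. AGL80 (DN30072), a protein of the Arabidopsis central cell, had 6.91 ± 0.937 CPM in Chongqing and 11.9 ± 0.548 in Gansu, 6 counts in Hubei and 1 count in Shanxi, in replicate 3. A second AGL80 unigene, DN1318, was highest in Hubei, at 2.64 ± 0.581 CPM, and the pair summed to 13.6 ± 0.859 in Gansu, 7.65 ± 0.565 in Chongqing, 2.73 ± 0.65 in Hubei and 1.01 ± 0.201 in Shanxi. AGL61, another central cell protein of Arabidopsis, was present in every area, with sums of 3.68 to 6.8 CPM (area means).

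AGL62, which in Arabidopsis keeps the endosperm from forming cells too early, had 3 matches, all highest in Gansu. DN18825 had 10.8 ± 1.51 CPM in Gansu and 2.92 ± 0.229 in Chongqing, with 0 counts in Hubei and 1 in Shanxi, and DN19614 had 9.77 ± 0.635 in Gansu and 3.75 ± 0.513 in Chongqing against 0.283 ± 0.13 in Hubei. DN29023 had 3.98 ± 0.483 CPM in Gansu and 0.221 or less elsewhere (area means). Summed, AGL62 stood at 24.5 ± 1.21 CPM in Gansu, 6.7 ± 0.347 in Chongqing, 0.756 ± 0.164 in Shanxi and 0.312 ± 0.156 in Hubei.

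**Figure D4:**
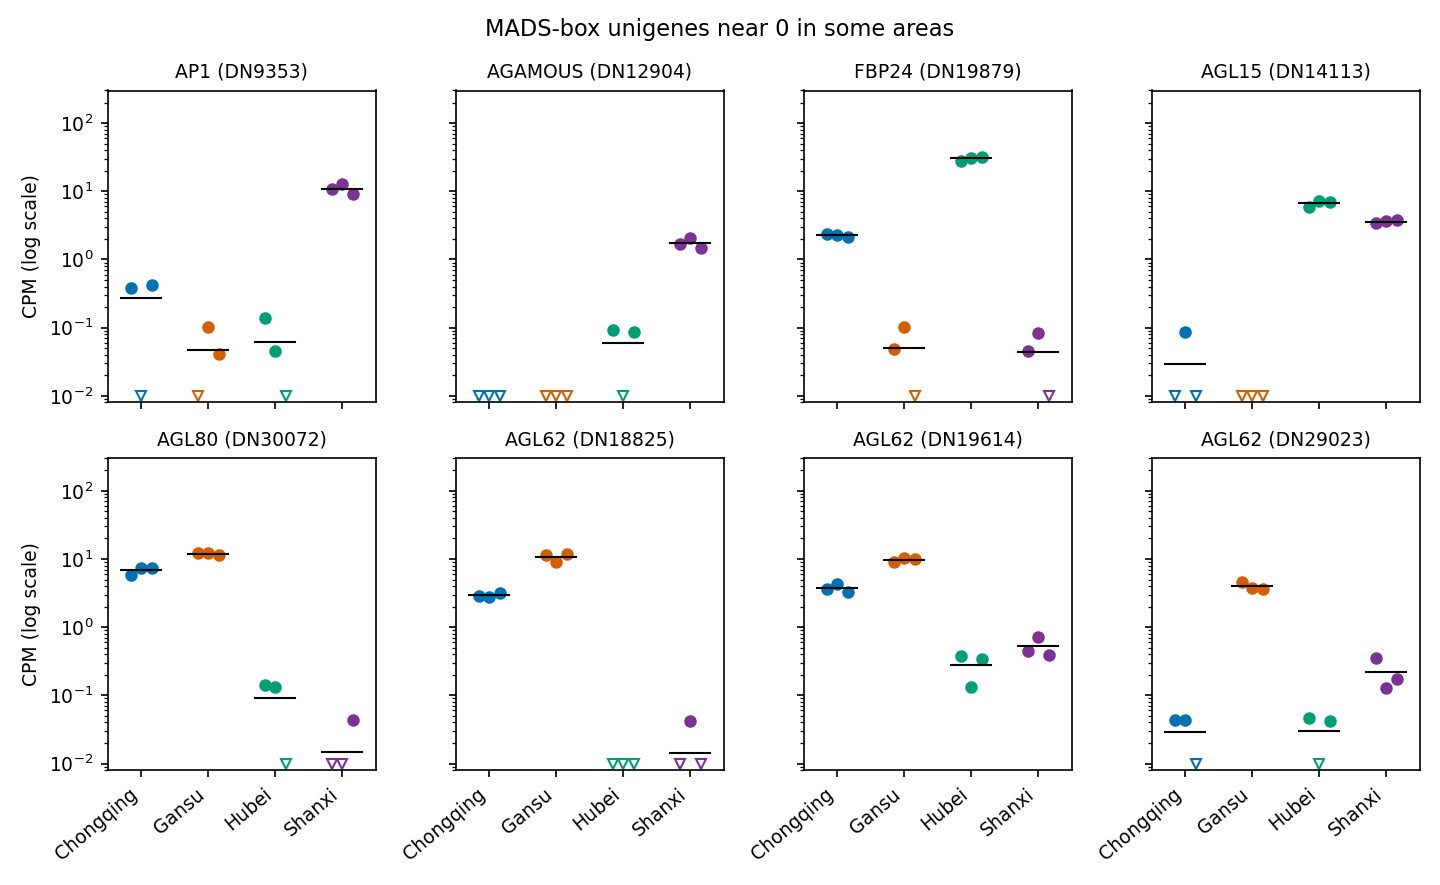
Each panel is 1 MADS-box unigene named for floral, ovule or seed genes; points are libraries on a log CPM scale, black lines are area means above 0, and open triangles mark libraries at 0. AP1 and AGAMOUS stand out in Shanxi, FBP24 in Hubei, AGL15 in Hubei and Shanxi, and AGL80 and AGL62 in Gansu with or without Chongqing.

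MADS-box proteins known from roots also differed between areas. AGL12 (DN27027), needed for root growth and flowering in Arabidopsis, had 2.37 ± 0.147 CPM in Hubei, 3.47 ± 0.0297 in Shanxi, 1.52 ± 0.229 in Gansu and 0.873 ± 0.0162 in Chongqing. Shanxi over Chongqing was 1.98 ± 0.24 (log2; edgeR adjusted p = 1.4e-05). AGL21, which acts in lateral roots of Arabidopsis, had 4 matches that summed to 29.3 to 49.7 CPM, and its unigene DN21212 was 5.01 ± 0.58 higher in Chongqing than in Hubei (log2; edgeR adjusted p = 8.7e-06) and 6.63 higher without Hubei replicate 3. The 4 unigenes summed differed by 0.20 between these areas. By the family names deposited with the unigenes, the 18 MIKC-type members, the class with a protein-interaction domain, summed to 403 ± 5.11 CPM in Shanxi, 259 ± 8.08 in Hubei, 179.6 ± 4.79 in Chongqing and 191 ± 6.44 in Gansu. The 22 members labelled M-type summed to 72.5 ± 3.49 CPM in Gansu, 64 ± 2.49 in Chongqing, 55.4 ± 1.58 in Shanxi and 47.2 ± 3.84 in Hubei. That label also covers DN18489 and DN21663_c0_g1, which carry the protein-interaction domain (K-box). Matches to AGAMOUS (DN12904) and AGL15 (DN14113) are labelled M-type as well. JOINTLESS (DN21180) carries a K-box but has no family label, so it is in neither sum. Of the SOC1 matches within the MIKC-type sum, DN21346 and DN21486 were highest in Shanxi and DN18956 in Chongqing. The sums follow the deposited labels and do not cleanly separate the MADS-box classes.

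The SPL family was led by SPL14, an Arabidopsis regulator of plant form, whose unigene DN24297_c0_g1 was low only in Hubei. It had 269.8, 333 and 267 CPM in Gansu, 293, 302 and 270.0 in Chongqing, 353, 282 and 332 in Shanxi and 173, 151 and 146 in Hubei. Chongqing, Gansu and Shanxi overlapped, with adjusted p-values of 0.98, 0.23 and 0.27 between them, and all exceeded Hubei, Shanxi by 1.04 ± 0.11 (log2; edgeR adjusted p = 3.2e-06). The other SPL14 unigene, DN24297_c0_g5, had 127 CPM in Hubei and 149 to 165 elsewhere.

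SPL1, known in Arabidopsis for heat tolerance of the inflorescence, was spread over 8 unigenes. The most abundant, DN21828, had 122, 121 and 123 CPM in Hubei, 80.1, 67.5 and 79.1 in Shanxi, 10.9, 17.2 and 13.9 in Gansu and 86.8, 80.7 and 89.3 in Chongqing. DN23615 ran the other way in Gansu and Hubei, with 105, 106 and 95.4 CPM in Shanxi, 5.77, 2.45 and 4.48 in Hubei, 29.8, 33 and 26.9 in Chongqing and 88.7, 96.1 and 91 in Gansu. Gansu and Hubei were thus far apart for both, by 3.12 ± 0.13 in favour of Hubei for DN21828 and by 4.44 ± 0.19 in favour of Gansu for DN23615 (log2; edgeR adjusted p = 3.8e-10 and 6.1e-10). The 8 unigenes summed to 204 ± 13.8 CPM in Gansu, 206 ± 7.91 in Chongqing, 308 ± 16.6 in Shanxi and 271 ± 18.4 in Hubei, a range of 1.51 times. A minor unigene, DN22230, had 8.03 ± 0.779 CPM in Shanxi and 0.411 ± 0.479 in Gansu, a difference of 4.32 ± 0.72 (log2; edgeR adjusted p = 0.00028), and of 5.86 without Gansu replicate 2.

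SPL3, which promotes floral identity in Arabidopsis, had a pair of unigenes. DN15924 led in Hubei with 71.5 ± 5.7 CPM against 10.5 ± 2.25 in Gansu (2.77 ± 0.21 on the log2 scale; edgeR adjusted p = 1.3e-07). DN1077 led in Chongqing with 45.4 ± 4.09 CPM against 2.95 ± 3.3 in Hubei, where replicate 2 held 6.69 CPM and the others 0.419 and 1.75, and the difference was 3.94 ± 0.52 (edgeR adjusted p = 3.2e-05) or 5.35 without that library. Summed, SPL3 was low in Gansu alone, at 15 ± 0.359 CPM, with 60.4 ± 1.05 in Chongqing, 74.4 ± 2.51 in Hubei and 56.2 ± 2.86 in Shanxi.

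**Figure D5:**
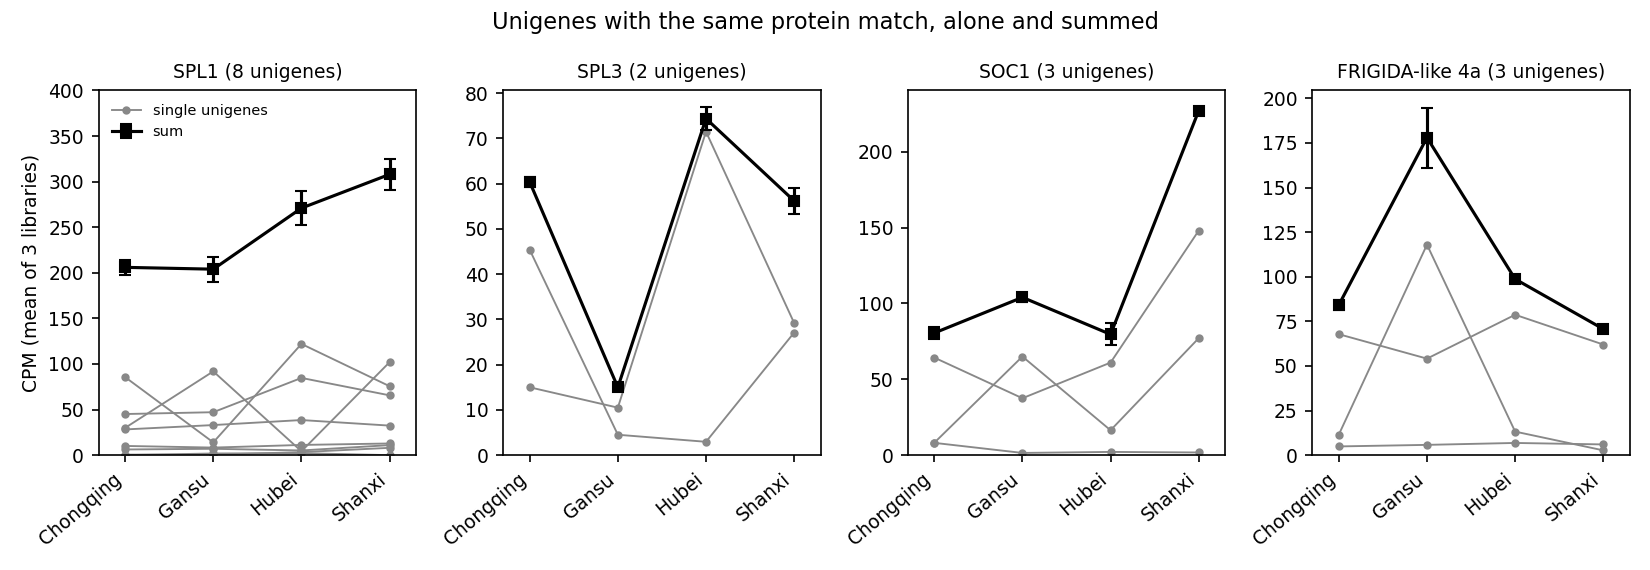
Grey points and lines are the area means of single unigenes in CPM, joined only to follow a unigene, and black squares their sum with the SD of 3 libraries. Unigenes are grouped by Swiss-Prot match. The crossing SPL1 unigenes sum to a range of 1.51 times, while the sums of SPL3 (low in Gansu), SOC1 (high in Shanxi) and FRIGIDA-like 4a (high in Gansu) still differ between areas.

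Several SPL unigenes of lower level were near 0 in an area. DN20902, a match to Arabidopsis SPL7, the regulator of copper supply, had 6.08 ± 0.55 CPM in Chongqing and 4.55 ± 0.221 in Hubei, 0.477 ± 0.258 in Shanxi and 1 count in Gansu, in replicate 2. DN21402, a match to rice SPL7, had 5.94 ± 0.278 CPM in Shanxi and 2.58 ± 0.136 in Gansu, 9 counts in Chongqing and 1 count in Hubei, in replicate 1. DN22102, a match to Arabidopsis SPL9, an age-dependent promoter of flowering, had 2.58, 4.01 and 3.7 CPM in Gansu and at most 1 count in any other area. Gansu was at least 80.1-fold higher than Chongqing. DN19926, a match to rice SPL14 that NR calls SPL9, was highest in Shanxi with 15.3 ± 1.49 CPM against 1.13 ± 0.198 in Chongqing (3.75 ± 0.23, log2; edgeR adjusted p = 2.3e-08).

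Summing unigenes of the same protein changed many of these contrasts. Of the 121 tested members, 86 shared their Swiss-Prot match with another member, and 59 of these were called with a 2-fold or larger difference between their highest and lowest area. For the same pair of areas the summed protein still differed by 2-fold or more in 28 cases, by less in 22, and in the opposite direction in 9. The pairs were picked as the extremes of the single unigenes, so smaller sums follow in part from that choice. The files do not say whether such unigenes are paralogs, alleles or fragments, so the level of a single unigene is uncertain as that of its gene.

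CONSTANS-like zinc finger proteins, named for the day-length regulator of Arabidopsis, were mostly lower in Gansu than in Chongqing and Hubei. Of 15 tested, 12 were higher and 1 lower in Chongqing than in Gansu (19.4% and 19.1% of all tested unigenes), with a median log2 difference of 0.76 against 0.00 over all. Gansu was lower than Hubei for 10 and higher for 3 (26.5% and 24.0% of all), with a fitted median of -1.44, or -0.68 when a member without counts in an area takes its bound, against 0.01 over all. Gansu was lower than Shanxi for 8 and higher for 5 (22.9% and 21.2% of all), with a median of -0.64 against 0.00, and the sums of these areas were equal. All members of this role summed to 320.3 ± 4.91 CPM in Hubei, 203 ± 1.82 in Shanxi, 203 ± 2.66 in Gansu and 331 ± 5.31 in Chongqing. For these pairs with Gansu the green shoot markers went the same way. Of 27 tested, 21 were higher and 2 lower in Chongqing than in Gansu, and 18 lower and 3 higher in Gansu than in Hubei. Between Gansu and Shanxi, 5 markers were higher and 15 lower in Gansu, with sums of 305 and 497 CPM, where the CONSTANS-like sums were equal. The part of the markers in the CONSTANS-like differences was not tested.

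COL10 (DN21824), a B-box protein, was the most abundant, with 27, 32.4 and 27.3 CPM in Shanxi, 48, 47.9 and 55.2 in Hubei, 102, 105 and 108 in Chongqing and 59.3, 53.5 and 63.1 in Gansu. Chongqing stood above all other libraries and Shanxi below them, a difference of 1.86 ± 0.09 (log2; edgeR adjusted p = 2.3e-09). COL15 (DN11079) had the same highest and lowest area, with 37.7 ± 1.06 CPM in Chongqing and 14.7 ± 0.965 in Shanxi, and the second COL10 unigene, DN18994, had 37.6 ± 1.18 in Chongqing and its lowest level, 20 ± 1.5, in Hubei.

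COL5 had DN22906 and DN17536 as its most abundant unigenes. DN22906 had 32 ± 2.2 CPM in Hubei, 29.1 ± 3.84 in Shanxi, 15.7 ± 0.735 in Chongqing and 11.1 ± 0.406 in Gansu, and Hubei exceeded Gansu by 1.52 ± 0.11 (log2; edgeR adjusted p = 6.6e-08). DN17536 had 6.97, 6.24 and 7.48 CPM in Gansu, 17.3, 19.9 and 18.2 in Chongqing, 5.2, 3.56 and 3.08 in Shanxi and 54.4, 55.2 and 42.7 in Hubei. For DN17536, Hubei exceeded Shanxi by 3.69 ± 0.17 (log2; edgeR adjusted p = 2e-09). Another COL5 unigene, DN15345, had 9.26 ± 1.29 CPM in Hubei and 0 counts in Gansu, at least a 199.5-fold difference, while DN4776 had 2.19 ± 0.537 in Gansu and 1 count in Chongqing, in replicate 3. Summed over 5 unigenes, COL5 was 96.2 ± 8.98 CPM in Hubei, 40.4 ± 1.09 in Chongqing, 37.1 ± 4.85 in Shanxi and 20.9 ± 0.868 in Gansu. COL4 (DN15947) and COL6 (DN12564) also peaked in Hubei, with 30.5 ± 4.76 and 22.8 ± 1.66 CPM. Their lowest area was Gansu, with 5.32 ± 1.34 and 4.79 ± 0.715.

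The FRIGIDA group, whose founding member activates FLOWERING LOCUS C in Arabidopsis, had its highest sums in Hubei and Shanxi. Its 14 unigenes summed to 762 ± 50.2 CPM in Hubei, 890.2 ± 60 in Shanxi, 621 ± 35.8 in Gansu and 592 ± 20.4 in Chongqing. Without its most abundant unigene, DN16475, a sum added after the values were seen, Hubei had 445 ± 18.8 CPM, Gansu 403 ± 27.6, Shanxi 374 ± 12.1 and Chongqing 341 ± 1.68, so Shanxi then lay below Gansu. In Hubei, 9 were higher and 1 lower than in Chongqing, and 9 higher and 2 lower than in Gansu (of all tested unigenes, 25.9% were higher and 23.6% lower in Hubei than in Chongqing, and 26.5% higher and 24.0% lower than in Gansu).

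FRIGIDA-like 4b (DN16475) carried more than any other member. It had 559.6, 465 and 524 CPM in Shanxi, 343, 324 and 281 in Hubei, 250.3, 269.5 and 232 in Chongqing and 211, 229.5 and 212 in Gansu, or 272 FPKM, the value per unigene length, in Shanxi, 165 in Hubei, 135 in Chongqing and 119 in Gansu (area means). Shanxi lay above all other libraries, by 1.25 ± 0.09 over Gansu (log2; edgeR adjusted p = 1.2e-07), and Chongqing minus Gansu was not called although their libraries did not overlap (0.20 ± 0.09, adjusted p = 0.092). FRIGIDA-like 3 had 4 unigenes, which summed to 153 ± 10.4 CPM in Gansu, 164 ± 6.98 in Chongqing, 216 ± 12.2 in Shanxi and 265 ± 17.6 in Hubei.

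FRIGIDA-like 4a showed the largest contrast of the group. DN15021 had 13.5, 12.5 and 13.5 CPM in Hubei, 3.4, 1.14 and 3.48 in Shanxi, 121, 137 and 94.7 in Gansu and 12.3, 12.5 and 9.57 in Chongqing. Gansu stood far above every other library, by 5.46 ± 0.27 over Shanxi (log2; edgeR adjusted p = 3e-09). The second unigene, DN20219, was 0.54 ± 0.07 higher in Hubei than in Gansu (edgeR adjusted p = 3.6e-05). The 3 unigenes summed by Swiss-Prot match were instead higher in Gansu (-0.83 for Hubei minus Gansu), at 178 ± 16.8 CPM against 70.7 to 98.7 elsewhere. NR groups them otherwise. It names DN15021 FRIGIDA-like 4a isoform X2, the FRIGIDA-like 4b unigenes DN16475 and DN16428 isoform X1 of that protein, and DN20219 an uncharacterized protein. The FRIGIDA-like 4b pair summed to 224 ± 8.7 CPM in Gansu and 534 ± 46.7 in Shanxi. The Gansu peak of the FRIGIDA-like 4a sum thus holds for the Swiss-Prot grouping, and a sum by NR name was not made. FRIGIDA itself (DN3844) differed by less than 2-fold, with 9.63 ± 0.099 CPM in Shanxi, 11.9 ± 0.454 in Hubei, 13.4 ± 0.439 in Chongqing and 11.3 ± 0.862 in Gansu, and Chongqing exceeded Shanxi by 0.48 ± 0.10 (log2; edgeR adjusted p = 0.0014). All Chongqing libraries lay above, and all Shanxi libraries below, the other 9.

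Among the roles, the autonomous pathway had the smallest median span of single unigenes. Its 13 unigenes summed to 278 ± 18.3 CPM in Gansu, 291 ± 6.48 in Chongqing, 252 ± 16.6 in Shanxi and 232 ± 12.9 in Hubei. The KH-domain protein FLK (DN18841) had 46.8, 43.1 and 41.8 CPM in Hubei, 59, 49.3 and 55.1 in Shanxi, 66.2, 68.2 and 61.5 in Gansu and 78.2, 76.8 and 72 in Chongqing. All areas were separate, and Chongqing over Hubei was 0.79 ± 0.08 (log2; edgeR adjusted p = 2.3e-06). The other FLK unigene, DN20328, lost its call across areas without any 1 of the Chongqing libraries (edgeR adjusted p = 0.096 to 0.13), and without some others.

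The RNA-binding proteins FPA and FCA and the RNA 3' end factor FY stayed within narrow ranges. The main FPA unigene, DN15830, was 0.32 ± 0.08 higher in Shanxi than in Hubei (log2; edgeR adjusted p = 0.0071), but its call across areas was lost without Hubei replicate 2 (adjusted p = 0.072) or replicate 3 (0.066). The main FCA unigene, DN22722, was 0.47 ± 0.11 higher in Gansu than in Hubei (adjusted p = 0.0033), with no overlap between their libraries. Summed, FPA had 71.4 to 88.2 CPM and FCA 39.4 to 51.7 CPM (area means), and FY (DN9406) had 25.8 ± 1.55 CPM in Hubei and 19.9 ± 1.48 in Shanxi (0.37 ± 0.10, log2; edgeR adjusted p = 0.0059). The histone demethylase FLD (DN23141) was lowest in Shanxi, at 5.76 ± 0.645 CPM against 9.49 to 11.4 elsewhere, and 0.98 ± 0.15 below Gansu (edgeR adjusted p = 0.00014). One FCA unigene, DN16131, and another FLD unigene, DN32376, were not called in the test across areas (edgeR adjusted p = 0.79 and 0.35). The calls across areas of FCA unigene DN22948 and FPA unigene DN23090 were lost without some single libraries (edgeR adjusted p up to 0.13 and 0.077).

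Of the other regulators, PIE1 (DN23384), a chromatin remodeller needed for FLOWERING LOCUS C expression in Arabidopsis, had 68.3 ± 2.47 CPM in Shanxi, 52.9 ± 1.15 in Hubei, 92.3 ± 2.93 in Chongqing and 87.4 ± 0.419 in Gansu. Chongqing over Hubei was 0.80 ± 0.05 (log2; edgeR adjusted p = 5.2e-08). PHYTOCHROME-DEPENDENT LATE-FLOWERING (DN17390), a partner of phytochrome B in Arabidopsis, was highest in Gansu with 88.3 ± 6.09 CPM against 43.6 to 53.8 elsewhere. A FLOWERING-PROMOTING FACTOR 1-like unigene (DN13291) had 6.98, 4.68 and 3.88 CPM in Hubei, 1.15 ± 0.545 in Gansu, 1.31 ± 0.0556 in Shanxi and 5 counts in Chongqing, and Hubei over Chongqing was 6.07 ± 0.59 (log2; edgeR adjusted p = 1.8e-06) or 6.74 without Chongqing replicate 3. DN20293, which Swiss-Prot calls EARLY FLOWERING 5 and NR a formin-like protein, had 77, 83.1, 59.4 and 49.2 CPM in Chongqing, Gansu, Hubei and Shanxi.

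Genes of the wider flowering network that are no members also differed between areas. All 25 tested unigenes of gibberellin synthesis, breakdown and response were called in the test across areas, as were 13 of 13 for meristem and floral organ identity, 27 of 29 for Polycomb and chromatin, 31 of 34 for photoperiod input and 7 of 7 VIN3-like proteins, the partners of Polycomb in vernalization. Of all tested unigenes 70.4% were called, and of those with a mean of at least 1 CPM 81.9%. Between Chongqing and Shanxi, the gibberellin list had 9 unigenes higher and 12 lower in Chongqing, the photoperiod list 16 higher and 8 lower, the floral identity list 8 higher and 2 lower, the Polycomb list 8 higher and 10 lower and the VIN3-like list 1 higher and 4 lower, where 23.0% and 24.8% of all tested unigenes were.

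Gibberellin, the hormone that drives stem elongation at bolting, had its breakdown enzymes at different levels by area. A gibberellin 2-beta-dioxygenase 8 (DN21676_c0_g6) had 163 ± 4.59 CPM in Shanxi against 11.8 to 15.2 elsewhere, and a second unigene of that name (DN22268) 74.9 ± 10.2 in Shanxi against 1.42 to 3.17. The other tested unigenes of that name were mixed. In Chongqing and Shanxi, DN21676_c0_g3 had 26.5 ± 0.535 and 3 ± 0.393 CPM, DN14388 4.21 ± 0.159 and 1.93 ± 0.212, and DN21616 1.02 ± 0.236 and 8.32 ± 1.3. Gibberellin 2-beta-dioxygenase 6 (DN8496) stood at 7.11 ± 0.981 CPM in Gansu, 59.5 ± 3.59 in Chongqing, 0.526 ± 0.613 in Shanxi and 0.367 ± 0.41 in Hubei. Gibberellin 2-beta-dioxygenases 1 (DN5425) and 2 (DN11608) were highest in Hubei, with 24.7 ± 1.45 and 12.4 ± 1.59 CPM against 0.0162 to 3.25 elsewhere (area means). The receptor GID1B (DN21926) ranged from 42.6 ± 4.17 CPM in Chongqing to 177 ± 9.07 in Shanxi, and its unigene DN20525 from 34.5 ± 2.92 to 108 ± 1.12. GID1B unigene DN20344 instead peaked in Hubei, at 40.4 ± 1.43 CPM against 22.7 ± 0.908 in Shanxi. VIN3-like protein 1 (DN13075) ranged from 7.94 ± 0.438 CPM in Chongqing to 32.2 ± 1.77 in Shanxi. Of its other unigenes, DN21869 was also highest in Shanxi (3.17 ± 1.51), DN22412 in Hubei (8.27 ± 1.08) and DN20019 in Chongqing (2.45 ± 0.22). The most abundant unigene of GIGANTEA (DN20756_c0_g5), which links the clock to CONSTANS in Arabidopsis, had 199 ± 2.71 CPM in Chongqing and 65.6 ± 5.76 in Shanxi. Its other unigenes had other patterns. In Chongqing, Gansu, Hubei and Shanxi, DN20376 had 82.9, 29.1, 118 and 58.6 CPM and DN20756_c0_g3 had 43.7, 43.2, 18.8 and 36. The edgeR adjusted p across areas was 9.5e-06 or less for the unigenes of this paragraph, except DN21869 (0.0034), DN22412 (0.009) and DN20019 (0.023).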

How the data were processed

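Root RNA of 4 producing areas was sequenced in 12 libraries, grouped by area from the sample titles. The authors deposited estimated counts per unigene (with decimals, and with totals that differ between libraries) and FPKM, which is scaled for length and library total. The submitters' processing notes list RSEM, featureCounts, Bowtie2, Trimmomatic, FastQC and DESeq2, with versions and roles not given in the sources used here, nor the treatment of reads that fit several unigenes. Members were found in the deposited Swiss-Prot text. Members, roles and lists were chosen with earlier results of these data known, and the VIN3-like list and the FLOWERING LOCUS C set after members were seen.

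Counts were rounded and tested with edgeR 4.0.16 (quasi-likelihood, TMM, filterByExpr by area) under R 4.3.3, in 1 fit of 12 libraries with 8 residual degrees of freedom. This left 60756 unigenes and 121 members. P-values were adjusted by Benjamini-Hochberg over all tested unigenes, and calls are at 0.05. CPM are TMM-normalised, and an SE is the log2 difference divided by the square root of F. An area at 0 was set to 3 counts for a bound, and ratios against 1 to 3 counts carry an exact binomial 95% interval that covers counting error only. TMM factors were 0.941 to 1.05. The scripts were checked on simulated data. Named members are the 3 most abundant and the 2 of smallest p in each role, the 2 highest and 2 lowest differences of each pair (mean of 1 CPM or more, more than 3 counts in each area, no overlap) and the main member of key proteins, 41 in all, and further members were named after their values were seen. Alternatives were DESeq2 1.42.0, RLE, other filters, limma 3.58.1 on log2(FPKM + 1) and log2(FPKM + 0.1), the replicate block, fits with only the areas compared, each library left out, and counts summed by Swiss-Prot protein.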

Additional observations from a re-analysis of the deposited data

How the results depend on the processing

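The number of members called stayed within 1.5 times of that reported under DESeq2, RLE, both other count filters, both limma fits and fits with only the areas compared. With 1 library left out it ranged from 108 to 113 in the test across areas, 56 to 66 for Chongqing and Gansu, 72 to 82 for Chongqing and Hubei, 70 to 82 for Chongqing and Shanxi, 79 to 86 for Gansu and Hubei, 73 to 82 for Gansu and Shanxi and 66 to 80 for Shanxi and Hubei. Counts summed by protein, which leave fewer items to test, gave 63 proteins called across areas and 32, 49, 46, 51, 47 and 45 for the pairs in the same order. Among named members, 854 log2 differences under the alternatives kept direction and call. Summing reversed 2, DN18489 (-0.65, Chongqing minus Shanxi) and DN20219 (-0.83, Hubei minus Gansu), and 3 were no longer called. Over all tested members, 19 moved by over 1.5 times without a single library. The members that lost their call across areas differed with the library left out, and DN22948, DN5679, DN23222 and DN20328 were among them. The replicate block gave 108 members across areas and 61, 78, 74, 82, 79 and 76 for the pairs. Same-numbered libraries of different areas correlated by -0.134 to 0.116 in their deviations, so the numbers are not treated as pairing them. Depth limits members near 0: 3 counts correspond to 0.129 to 0.151 CPM in a library.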
